A study of Mus musculus with 2 samples.

Results

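The cells described here were the 8% of kept cells in each library with the highest accessibility of the DNA patterns of SP and KLF transcription factors, in single-cell chromatin accessibility data from wild-type (WT) retina of E14.5 mouse embryos. For each cell, the count of each of 5 motifs (SP1, SP3, SP4, KLF14 and KLF16) was divided by the cell's total motif count, and the mean of the 5 log2 shares is called the SP/KLF score. The top of this score held 71 of 890 kept cells in replicate 1 and 84 of 1051 in replicate 2, or 155 of 1941 in all, and these cells are called members below. They were chosen on the measured score, so the score and every other motif of the same matrix describe the members and test nothing about them. No p-value is given anywhere for this reason, and because the series has only 2 libraries of 1 group.

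The 2 libraries were made from dissociated whole retina with the 10x Genomics droplet assay, in which a transposase cuts open chromatin in each nucleus. The labels give both as WT at the same stage and name no treatment or transgene. The labels give no strain and name no animal or litter for either replicate, so each SD (n = 2) below is the spread between these libraries and may be technical. The files hold motifs rather than genes, so the labelled tissue was not checked against marker genes.

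SP factors are zinc finger proteins that bind the GC box, a pattern found in the promoters of many genes that all cells use. KLF factors are their relatives and bind GC boxes or the closely related CACCC box. SP1 and SP3 are present in most cell types, whereas several KLF factors act in particular tissues or states of differentiation. In the retina at this age, dividing progenitors that carry SOX and homeodomain factors are giving rise to the first neurons, the retinal ganglion cells among them. A motif count in these matrices is the number of transposase cuts in all peaks that hold the pattern, so it measures accessibility and not binding, and a peak with several patterns counts for each of them. Factors with like patterns, such as those of the SP and KLF family, can therefore share counts.

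Promoter windows of genes of such factors show what GC boxes look like in sequence; the matrices do not say whether peaks in these windows entered the score. The windows below run from 250 bases before to 50 after the annotated start (RefSeq, GRCm38.p6, the mm10 assembly), 5′ to 3′ on the strand of the gene, with each GC box (GGGCGG or its reverse complement) in capitals. Sp1 and Sp3 encode factors of the score and are shown as typical GC-rich promoters; Pou4f2, which encodes a ganglion cell factor, is shown because a promoter with GC boxes can belong to a gene of 1 cell class. The 3 windows were chosen after the motif values had been seen.
Sp1, chr15:102406066-102406365, plus strand: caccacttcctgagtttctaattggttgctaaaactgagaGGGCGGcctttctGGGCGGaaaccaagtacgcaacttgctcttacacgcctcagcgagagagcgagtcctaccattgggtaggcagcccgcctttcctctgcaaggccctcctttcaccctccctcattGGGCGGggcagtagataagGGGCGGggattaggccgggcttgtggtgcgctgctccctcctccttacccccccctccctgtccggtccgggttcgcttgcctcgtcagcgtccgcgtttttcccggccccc
Sp3, chr2:72980397-72980696, minus strand: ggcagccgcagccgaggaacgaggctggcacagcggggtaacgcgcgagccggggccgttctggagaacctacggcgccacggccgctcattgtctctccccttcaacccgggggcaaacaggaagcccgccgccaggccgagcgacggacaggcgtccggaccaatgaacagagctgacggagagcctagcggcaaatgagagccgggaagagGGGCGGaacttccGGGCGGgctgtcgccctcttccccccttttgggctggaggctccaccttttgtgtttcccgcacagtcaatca
Pou4f2, chr8:78436598-78436897, minus strand: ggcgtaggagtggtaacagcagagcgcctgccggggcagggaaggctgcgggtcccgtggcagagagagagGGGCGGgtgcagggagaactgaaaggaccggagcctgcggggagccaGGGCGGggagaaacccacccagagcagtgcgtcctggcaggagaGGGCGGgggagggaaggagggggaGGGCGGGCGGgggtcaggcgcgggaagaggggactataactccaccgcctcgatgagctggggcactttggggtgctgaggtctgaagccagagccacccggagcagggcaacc
The Sp1 window holds 4 GC boxes, the printed Sp3 window 2 and the Pou4f2 window 5, where overlapping boxes count separately. A second annotated Sp3 start, at chr2:72979232-72979531 on the minus strand and not printed, has a window with 5 GC boxes. No promoter entry was matched for Klf16.

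Over all 32817 distinct promoter windows of this length, GGGCGG occurred on either strand in 35.6%. Windows with a GC box more often held other promoter patterns than windows without one. The ETS core CCGGAAG was in 15.0% against 5.48%, the NRF1 core CGCATGCG in 3.36% against 1.03%, the YY1 core AAGATGGCG in 2.62% against 0.724%, the ZBTB33 core TCTCGCGA in 1.96% against 0.459% and the E-box CACGTG in 9.68% against 5.75%. The CACCC box CCACACCC differed little, at 3.98% against 3.33%, and so did the NFY box CCAAT, at 35.9% against 38.2%. Patterns of lineage factors went the other way: the homeodomain core TAATTA was in 2.04% against 7.10%, the SOX core ACAATGG in 1.90% against 4.64% and the proneural E-box CAGATGG in 3.20% against 6.48%. The letters were searched on both strands; none of these patterns contains another, though neighbouring matches may overlap. Windows with a GC box also had a higher base content of G and C, with a median of 63.7% against 48.3%. The ETS, NRF1, YY1, ZBTB33 and CACGTG patterns contain the bases CG in a row, and the other patterns compared with the GC box do not. Windows were not matched for base content, so whether the differences between promoter and lineage patterns go beyond it was not tested. A match is a description of the sequence and shows no binding, and the peaks behind the counts need not be promoters, since the matrices do not say where peaks lie.

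Each library had 579 motifs, and the median kept cell had 3519151 motif counts in replicate 1 and 3523871 in replicate 2. Kept cells had at least 300000 counts and a higher total than the same barcode in the other library. Barcodes were widely shared between the libraries: 1828 occurred in both, and 872 of the 890 kept cells of replicate 1 and 925 of the 1051 of replicate 2 had a shallower copy in the other library, including 68 of 71 and 74 of 84 members. Only the deeper copy entered the values below. Leaving out the barcodes above 300000 counts in both libraries left the counts of motifs higher and lower at the same values. That step still kept 1939 of the 1941 cells and had 155 members as before, so it could hardly change the counts and says little about the sharing of barcodes.

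The members stood above the rest by a modest margin. Their mean score exceeded that of the other kept cells by 0.143 in replicate 1 and 0.147 in replicate 2 on the log2 scale, a mean of 0.145 ± 0.0030 (SD, n = 2) or 1.11-fold. There was no gap at the threshold. The lowest member and the highest other cell had scores of −7.0772 and −7.0774 in replicate 1 and −7.0922 and −7.0937 in replicate 2. Within 0.01 below the threshold lay 20 and 21 other cells, and within 0.01 above it 17 and 24 members. The upper end was long, with highest scores of −6.62 and −6.60 against member medians of −7.05 and −7.07.

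Members were shallower than the rest. Their median total was 1988929 counts in replicate 1 and 2853667 in replicate 2, against 3605382 and 3566272 in the other kept cells, a ratio of 0.552 and 0.800. When the cells of each library were split into 3 equal classes by total, the shallow, middle and deep class held 56, 11 and 4 members in replicate 1 and 43, 26 and 15 in replicate 2. The score itself had almost no trend with depth: across the 890 and 1051 cells, which share the total as the denominator of the score, Pearson's r between score and log10 total was −0.026 and −0.025. Its spread did: the SD of the score between cells was 0.134 and 0.118 in the shallowest of 10 depth classes and 0.037 and 0.027 in the deepest. Members were therefore also compared with depth-matched cells, 3 other cells per member nearest in log10 total. Against these 213 and 252 cells the score was higher by 0.149 in both libraries (0.149 ± 0.000088, SD, n = 2), as large as against all others. Matching was close in replicate 2, where the widest gap was 0.018 in log10 total. In replicate 1, 13 of the 213 matched cells were more than 0.1 away, the widest gap was 0.235 and the members' median total stayed at 0.917 of that of their matches.

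**Figure D1:**
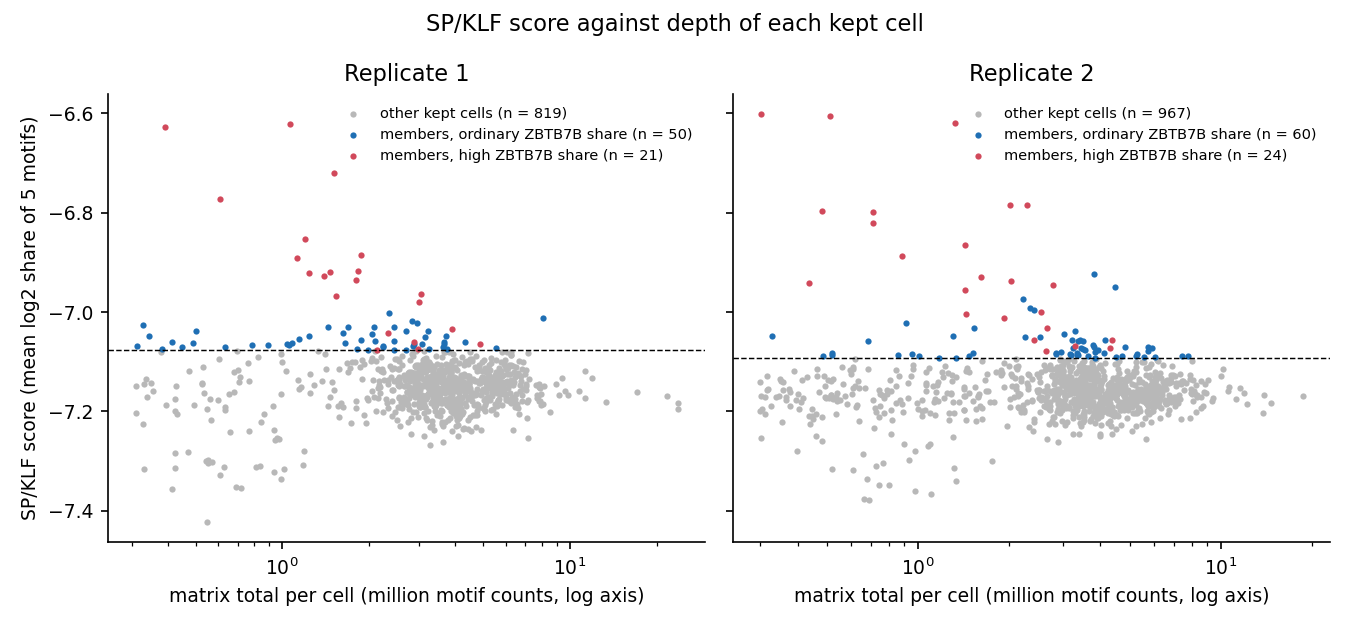
SP/KLF score (mean log2 share of 5 motifs) against the matrix total of each kept cell (log axis), 1 panel per library, with the lowest member score as a dashed line. Members (blue, and red where the ZBTB7B share was high) reach −6.62 and −6.60. In the shallow class by total, where the scores of all cells (grey: other kept cells) also spread most, lie 56 of 71 members in replicate 1 and 43 of 84 in replicate 2.

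Of the 5 motifs of the score, SP3 had a mean share of 0.856% of all motif counts in the members of replicate 1 and 0.850% in those of replicate 2, against 0.776% and 0.771% in depth-matched cells. Over single members its share ran from 0.819% through a median of 0.835% to 1.08% in replicate 1, and from 0.801% through 0.825% to 1.09% in replicate 2. All members lay above the median of their matches, and 51 of 71 and 70 of 84 above every matched cell. SP1, the most frequent of the 5, had 1.38% and 1.37% against 1.27% and 1.26%. KLF16, a repressor of the same family, had 0.802% and 0.797% against 0.727% and 0.723%. As log2 ratios of mean share to depth-matched cells these were 0.12 ± 0.0010 for SP1, 0.14 ± 0.00041 for SP3 and 0.14 ± 0.00052 for KLF16 (SD, n = 2), with 0.17 for SP4 and 0.19 for KLF14. These ratios restate the choice of members.

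Of the 577 motifs with at least 20 counts per kept cell on average, 90 (15.6%) had a share at least 0.1 higher on the log2 scale in members than in depth-matched cells in both libraries, and 53 (9.19%) one at least 0.1 lower. A change of 0.1 is 1.07-fold, and motifs past it in both libraries are called higher or lower below; the word implies no test. Against all other kept cells the counts were 93 (16.1%) and 57 (9.88%). Ratios of the median instead of the mean share gave 37 higher (6.41%) and 16 lower (2.77%). Shares sum to 100% in each cell, and where some are higher others must be lower: centring the ratios on the median motif gave 99 higher and 28 lower, and shares of the counts of motifs outside the SP/KLF, EGR, core promoter and GC-rich zinc finger lists gave 110 and 16. The median motif stood at −0.012.

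**Figure D2:**
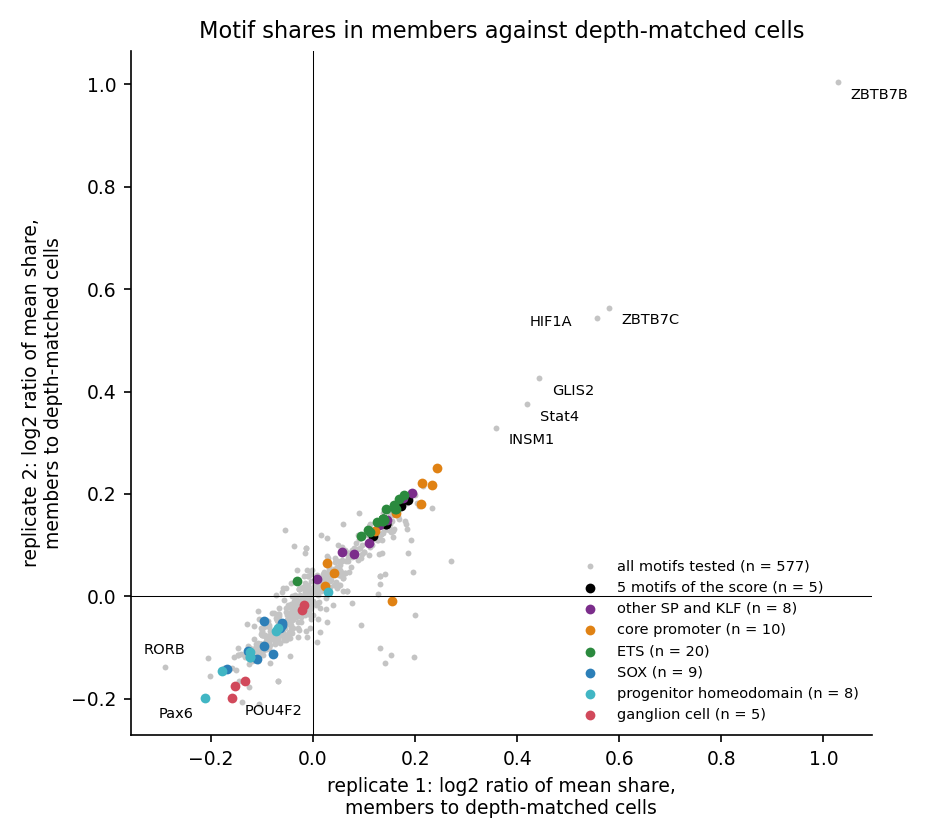
Log2 ratio of mean share, members to depth-matched cells, in replicate 2 against replicate 1, 1 point per motif (577 motifs). ZBTB7B stands at 1.03 and 1.005, the SP, KLF, core promoter and ETS motifs mostly between 0.1 and 0.25, and the ganglion cell, SOX and progenitor homeodomain motifs mostly below 0.

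The other SP and KLF motifs did not all stand with the score. Of 8, 5 were higher (median 0.12 ± 0.0023, against 15.6% of all motifs), and 2 by the median share (median 0.086 ± 0.0017, against 6.41%), but they can share peaks with the motifs of the score. Klf12, named for a repressor, had 0.166% and 0.167% of counts in members against 0.145% and 0.145% in matched cells, a log2 ratio of 0.20 ± 0.0056. KLF13 stood at 0.18 ± 0.012, SP8 at 0.15, KLF5 at 0.13 and SP2 at 0.11. KLF9 (0.082), Klf1 (0.071), the motif of an erythroid activator of globin genes, and KLF4 (0.022), the motif of a pluripotency and epithelial factor, did not pass 0.1 in both libraries. KLF4 had 0.104% and 0.104% in members against 0.103% and 0.102% in matched cells, and 42 of 71 and 63 of 84 members lay above the matched median. Of the 5 motifs of the score themselves, SP4 and KLF14 alone passed 0.1 by the median share, with a median over the 5 of 0.0996.

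Motifs of factors that bind the promoters of broadly used genes were higher together. Of 10 core promoter motifs 6 were higher and 0 lower (median 0.15 ± 0.0094, against 15.6% of all motifs higher), and 4 were higher by the median share (median 0.10 ± 0.024, against 6.41%). YY1, a zinc finger factor at the start of many housekeeping genes, led them with 0.0876% and 0.0890% in members against 0.0740% and 0.0749% in matched cells (log2 ratio 0.25 ± 0.0050). ZBTB33, a factor that can bind methylated CpG, stood at 0.23 ± 0.011 and NRF1, a regulator of nuclear genes for mitochondria, at 0.22 ± 0.0059. All but 1 member of replicate 1 and 2 of replicate 2 lay above the matched median for NRF1. THAP1 (0.021) and TBP (0.043), the motif of the TATA box, did not pass. Zfx, a zinc finger factor outside every list, reached 0.22.

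Among the 22 lists, ETS had the most motifs higher: 18 of 20 were higher and 0 lower, with a median of 0.14 ± 0.0092, against 15.6% of all motifs higher. By the median share 5 of 20 were higher, against 6.41% of all motifs, with a list median of 0.097 ± 0.0027 that lay just under the threshold. The lowest member took 0.723% of its counts from the list in both libraries, below the medians of matched cells (0.773% and 0.749%), so not every member was high. Gabpa, the ETS factor of many housekeeping promoters, had 0.0685% and 0.0588% against 0.0605% and 0.0512%, a log2 ratio of 0.19 ± 0.014. The 20 are not separate measurements: ELK1, ELK3, ETV1, ETV4 and FEV had the same counts in every cell, and so had ERG and FLI1. ETV2, a regulator of endothelial fate, stood at −0.00052 ± 0.045. All 4 EGR motifs matched were higher (median 0.14 ± 0.016), and 1 by the median share; their pattern is GC-rich, and WT1 had no motif under that name.

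Other GC-rich or E-box groups were mixed, where 15.6% of all motifs were higher and 9.19% lower. In the GC-rich zinc finger list 8 of 18 were higher and 0 lower (median 0.098 ± 0.0063). By the median share 3 of these 18 were higher (median 0.066 ± 0.017, against 6.41%). The zinc finger list includes ZBTB7B, ZBTB7C, GLIS2 and INSM1, described below, while MZF1 (−0.013) and TFAP4 (−0.019) did not pass. In the MYC, USF and HIF list 7 of 13 were higher (median 0.13 ± 0.0079), and 3 by the median share (median 0.042 ± 0.00028, against 6.41%). HIF1A (0.55), described below, belongs to this list. USF1 stood at 0.20, MAX at 0.024 and MAX::MYC at 0.019. Of 4 motifs of the MITF and TFE family, regulators of pigment cells and lysosomes, 3 were higher (median 0.15 ± 0.0078), and 2 by the median share (median 0.10 ± 0.0027). MITF stood at 0.19 ± 0.022. This list was meant as a sign of pigment epithelium, but its E-box is also that of USF factors. Summed over the list, members took a median of 0.545% of counts in both libraries (lowest 0.492% and 0.472%, highest 0.852% and 0.854%), against 0.517% in matched cells of both. Whether pigment epithelium had a part in this was not tested. In the horizontal and amacrine list the 6 higher motifs of 13 were all TFAP2 variants, whose pattern is GC-rich, while PROX1 was lower and ONECUT1 stood at −0.018. By the median share 2 of this list were higher. Of 8 E2F motifs, cell cycle regulators, 3 were higher (E2F4, E2F6 and TFDP1) and E2F2 was lower. Of 11 CREB and ATF motifs 4 were higher and JDP2 was lower. By the median share 1 E2F motif and 1 CREB or ATF motif were higher. CTCFL was higher at 0.11 ± 0.0025. CTCF, the motif of the factor at domain boundaries, stood at 0.033 ± 0.00078.

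The motifs lower in members included those of factors of retinal lineages. Of 5 ganglion cell motifs 3 were lower and 0 higher (median −0.15 ± 0.023, against 9.19% of all motifs lower), and 1 was lower by the median share (median −0.067 ± 0.018, against 2.77%). POU4F2, the motif of a POU factor that ganglion cells need, had 0.0423% of counts in members of replicate 1 and 0.0421% in those of replicate 2, against 0.0473% and 0.0483% in matched cells. Over single members it ran from 0.0297% through a median of 0.0421% to 0.0583% in replicate 1, and from 0.0250% through 0.0427% to 0.0553% in replicate 2. Matched cells, 3 per member, reached 0.0737% and 0.0726%, and a maximum over more cells tends to be higher. Above the matched median lay 14 of 71 and 11 of 84 members, so the distributions overlapped. For the whole ganglion cell list, 2 and 0 members lay in the highest 8% of kept cells and 27 and 27 in the lowest 8%. The log2 ratio was −0.18 ± 0.028. POU4F1 stood at −0.16 ± 0.016, while EBF1 (−0.024) and ISL2 (−0.018) did not pass.

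Progenitor motifs lay on the same side. In the homeodomain list 5 of 8 were lower (median −0.12 ± 0.0072, against 9.19% of all motifs), and 2 by the median share (median −0.097 ± 0.0097, against 2.77%). The 8 motifs had 7 distinct sets of counts. LHX2, a LIM homeodomain factor needed for eye formation, had 0.0467% and 0.0474% in members against 0.0528% and 0.0524%, and only 5 of 71 and 11 of 84 members lay above the matched median. Pax6, the motif of a master regulator of the eye, stood at −0.21 ± 0.011, though it took only 0.0030% and 0.0031% of members' counts. Six3 stood at 0.019. All 9 SOX motifs were negative in both libraries, 3 of them past 0.1 (median −0.097 ± 0.00024) and 1 by the median share (−0.084 ± 0.0015), with Sox1 at −0.16 ± 0.020. Of 7 TEAD and NFI motifs all were negative and TEAD1 alone was lower, at −0.12 ± 0.0051. The motif with the lowest ratio was RORB, named for a nuclear receptor of photoreceptor and interneuron development, at −0.29 in replicate 1 and −0.14 in replicate 2. Under the share outside the promoter lists only 16 motifs were lower in all.

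**Figure D3:**
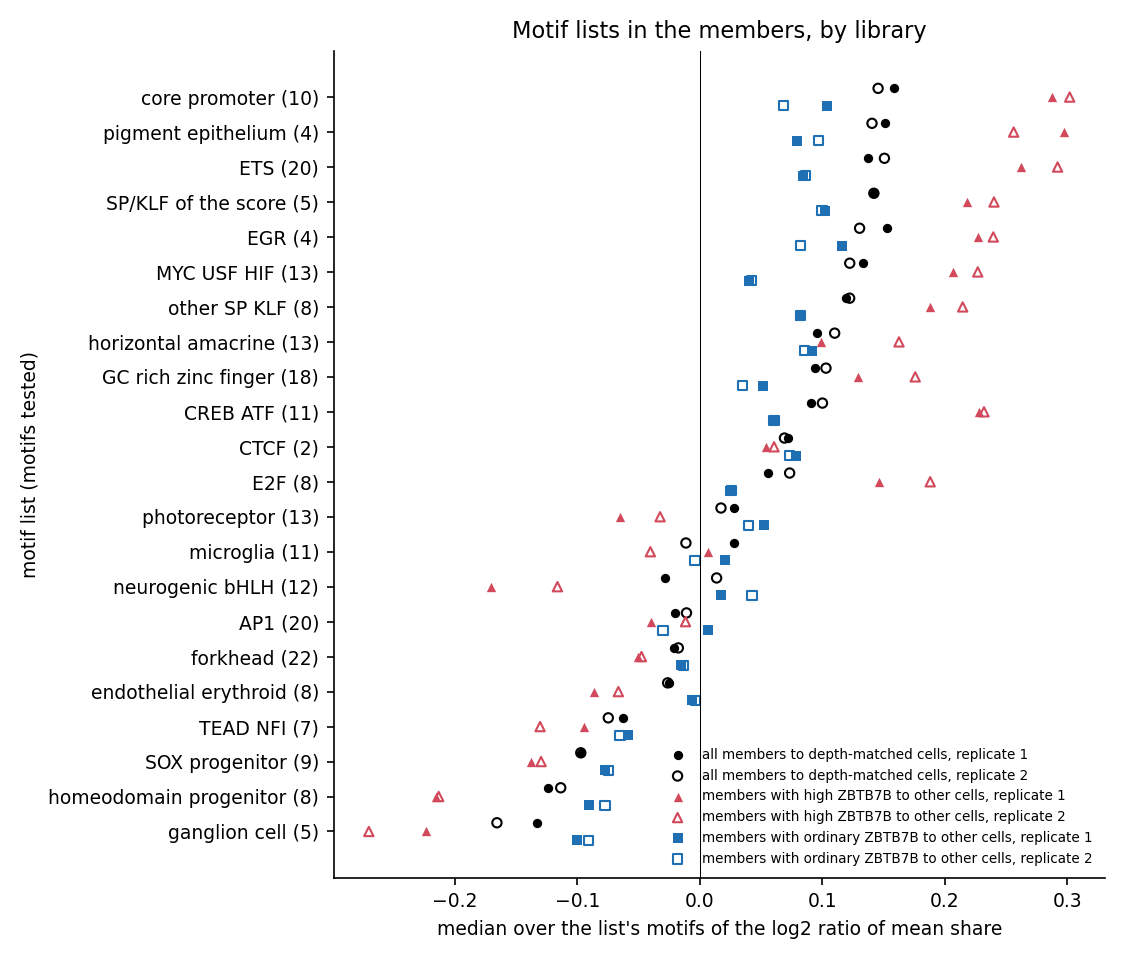
Median log2 ratio of mean share over each of 22 motif lists (filled: replicate 1, open: replicate 2), for all members to depth-matched cells (black) and for members with high (red) and ordinary (blue) ZBTB7B share to the other kept cells, not matched for depth. The core promoter list stands at 0.15 and the ganglion cell list at −0.15 in all members, and the high ZBTB7B members lie farthest from 0 in most lists that differ.

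Lists of neuronal and non-retinal cells had small medians, although single motifs or members of some of them differed. The 12 neurogenic basic helix-loop-helix (bHLH) motifs, with 10 distinct sets of counts, had a median of −0.029 in replicate 1 and 0.014 in replicate 2, with none past 0.1 in both. NEUROD1 stood at 0.075 ± 0.037 and NEUROG2 at −0.084 ± 0.013. Of the members, 28.2% and 17.9% lay in the lowest 8% of kept cells for this list, and 5.63% and 8.33% in the highest 8%. In the photoreceptor list (median 0.023 ± 0.0074) 3 of 13 were lower, against 9.19% of all motifs. All 3 were ROR motifs, and OTX1 stood at 0.090 ± 0.0024. Markers of other cells that a retina can hold gave a median of 0.0082 ± 0.028 for 11 microglia motifs and −0.026 ± 0.00089 for 8 endothelial and erythroid motifs, with 0 higher and 0 lower in both lists. The 22 forkhead motifs (−0.019 ± 0.0025) had none past 0.1, and the 20 AP-1 motifs (−0.016 ± 0.0068) only JUN, which was lower. These lists had 17 and 18 distinct sets of counts. The AP-1 list as named did not hold FOSL2::JUNB(var.2), also an AP-1 pair. That motif stood at 0.20, among the 12 highest motifs outside the score.

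A small set of motifs stood far above all these. ZBTB7B, the motif of a zinc finger factor known from T cell fate, was higher by 1.02 ± 0.017 on the log2 scale, or 2.02-fold, ahead of ZBTB7C (0.57), HIF1A (0.55), GLIS2 (0.43), Stat4 (0.40) and INSM1 (0.34). This difference came from a minority of members. The ZBTB7B share had a mean of 0.0360% in members and 0.0176% in matched cells of replicate 1, but medians of 0.0166% and 0.0166%. In replicate 2 the means were 0.0327% and 0.0163% and the medians 0.0146% and 0.0158%. The highest member had 0.209% in replicate 1 and 0.285% in replicate 2, against 0.103% and 0.0400% in the highest matched cell. With the median share the log2 ratio was 0.0040 and −0.11.

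Counts of these motifs varied together from cell to cell. Across the 890 kept cells of replicate 1 and the 1051 of replicate 2, each further count of ZBTB7B in a cell of given total went with 1.03 and 1.03 counts of ZBTB7C, 1.08 and 1.06 of HIF1A, 0.98 and 0.98 of Stat4, 1.03 and 1.03 of INSM1 and 1.096 and 1.08 of GLIS2. Pearson's r with ZBTB7B was over 0.9 for these and for ARNT::HIF1A in both libraries, and in replicate 1 also for the homeodomain motifs LBX2, GSX1, GSX2 and HOXB3. These r values describe cells that share the library and the total as denominator. The members' mean excess over matched cells was 183 and 164 counts in 1000000 motif counts for ZBTB7B, 210 and 194 for ZBTB7C, 206 and 192 for HIF1A, 186 and 167 for Stat4 and 223 and 212 for INSM1. The same number of counts is a larger ratio for a rarer motif, and ZBTB7B is the rarest of these, at 591 counts per kept cell against 2954 for INSM1. Which peaks carry these counts is not in the motif matrices.

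**Figure D4:**
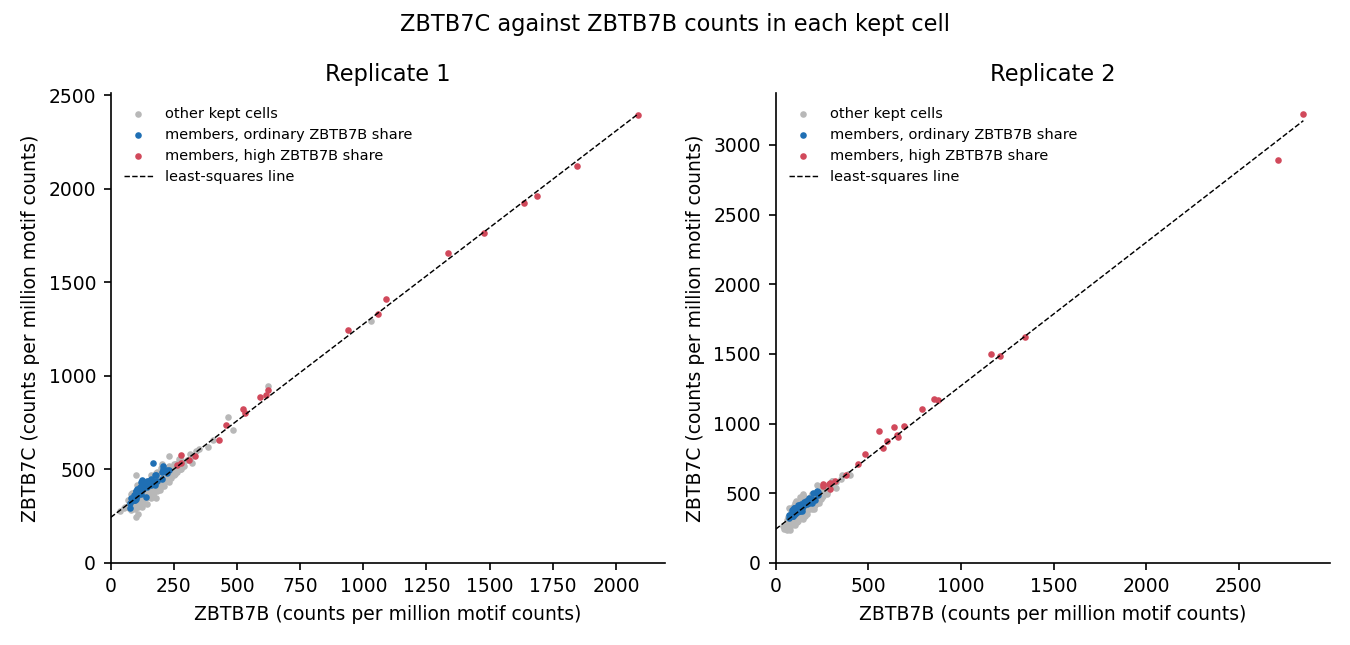
ZBTB7C against ZBTB7B counts per 1000000 motif counts in each kept cell, 1 panel per library, with a least-squares line over all kept cells (slope 1.03 in both). Members with high ZBTB7B share (red) extend to 2089 and 2848 ZBTB7B counts per 1000000, and members with ordinary share (blue) lie among the other cells (grey).

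The members were therefore split, after these values had been seen, at the 95th percentile of the ZBTB7B share of the other kept cells. In replicate 1, 21 members lay above it and in replicate 2 24, which is 29.6% and 28.6% of members. These held all 10 of the 10 highest scores in each library. Their score exceeded that of the other kept cells by 0.240 and 0.264, against 0.102 and 0.101 for the 50 and 60 members with ordinary ZBTB7B share. They were shallow, with median totals of 1802387 and 1766189 counts and 18 and 21 of them in the shallow class. The ordinary members had 2097404 and 3340512 counts.

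Against the other kept cells, without matching for depth, 120 motifs were higher (20.8%) and 140 lower (24.3%) in the high ZBTB7B members. In the ordinary members 35 were higher (6.07%) and 9 lower (1.56%). Core promoter motifs had a list median of 0.29 ± 0.0099 in the former and 0.086 ± 0.025 in the latter, and ETS motifs 0.28 and 0.085. Ganglion cell motifs had −0.25 and −0.096 and progenitor homeodomain motifs −0.21 and −0.084, so both kinds of member lay on the same side for these lists. Fewer motifs of each list passed 0.1 in the ordinary members: 2 of the 5 motifs of the score, 1 of 8 other SP and KLF, 4 of 10 core promoter and 6 of 20 ETS motifs were higher, and 1 of 5 ganglion cell, 1 of 8 progenitor homeodomain and 1 of 9 SOX motifs lower. In the high members these counts were 5, 6, 7 and 19 higher and 4, 5 and 6 lower. For neurogenic bHLH motifs the kinds did not lie on the same side: the list median was −0.17 and −0.12 in the high members of replicates 1 and 2, with 8 of 12 lower, and 0.017 and 0.043 in the ordinary members, with 1 higher. The difference between the kinds was not tested, and the unlike totals of the kinds were not matched. The ZBTB7B share of ordinary members lay at or below that of other cells, with log2 ratios of −0.21 and −0.20, which the split by that share helps to fix. YY1 was higher in ordinary members too, at 0.14 in both libraries, ZBTB33 at 0.15 and 0.16 and NRF1 at 0.12 and 0.13.

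Depth classes showed a like division. Members of the shallow class, set against the other cells of that class, had 100 motifs higher (17.3%) and 74 lower (12.8%). In the middle class 31 were higher (5.37%) and 20 lower (3.47%), and in the deep class, with 4 and 15 members, 21 (3.64%) and 7 (1.21%). The score difference was 0.162 and 0.204 in the shallow, 0.105 and 0.093 in the middle and 0.1004 and 0.092 in the deep class. YY1 was higher in all 3 classes, at 0.31, 0.14 and 0.15 as means of the libraries, and POU4F2 lower, at −0.21, −0.14 and −0.12. ZBTB7B was higher in the shallow class by 1.18 and 1.70 but lower in the middle class, at −0.22 and −0.48. In the 11 and 26 members of the middle class, 3 of 12 neurogenic bHLH motifs were higher and 0 lower (list medians 0.092 and 0.051), 4 of 13 photoreceptor motifs were higher and 2 lower (0.080 and 0.067), and 3 of 5 ganglion cell motifs were lower (−0.14 and −0.12). Among them NEUROD1, a bHLH factor of photoreceptors and amacrine cells, stood at 0.19 and 0.21, Crx, a photoreceptor factor, at 0.21 and 0.21, and OTX1 at 0.14 and 0.13. In the deep class Crx and NEUROD1 stood at −0.03 to −0.05. Crx and the depth classes were singled out after their values had been seen.

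The motif shares of the shallow copies of the same barcodes in the other library did not enter the choice of members. Their totals did enter the choice of kept cells, since only the deeper copy was kept. Copies with at least 10000 counts were used, which left 64 member and 778 other barcodes kept in replicate 1 and 66 and 796 kept in replicate 2. The score of the copies was higher for members by 0.139 and 0.148 (0.144 ± 0.0063, SD, n = 2), as in their own cells (0.137 and 0.133). The minimum was chosen after others had been looked at: at 1000 counts the difference was 0.141 and 0.148, and at 30000, with 41 and 28 member copies, 0.136 and 0.0998. Of the member copies, 57 of 64 and 62 of 66 lay above the median of the other copies. Across all copies the score of the copy and of the kept cell had a Pearson's r of 0.64 (842 barcodes) and 0.51 (862). Motifs outside the score differed in the copies as well: YY1 by 0.18 and 0.22, NRF1 by 0.19 and 0.21, Gabpa by 0.22 and 0.20 and POU4F2 by −0.11 and −0.30. Pax6, at −0.46 and 0.22, had opposite signs in the 2 sets of copies. ZBTB7B had 741 and 530 counts per 1000000 in the copies of high ZBTB7B members, 109 and 137 in those of ordinary members and 139 and 139 in the others. Whether a copy comes from the same cell or the same molecules as the kept cell was not tested, so the copies are no independent replicate.

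**Figure D5:**
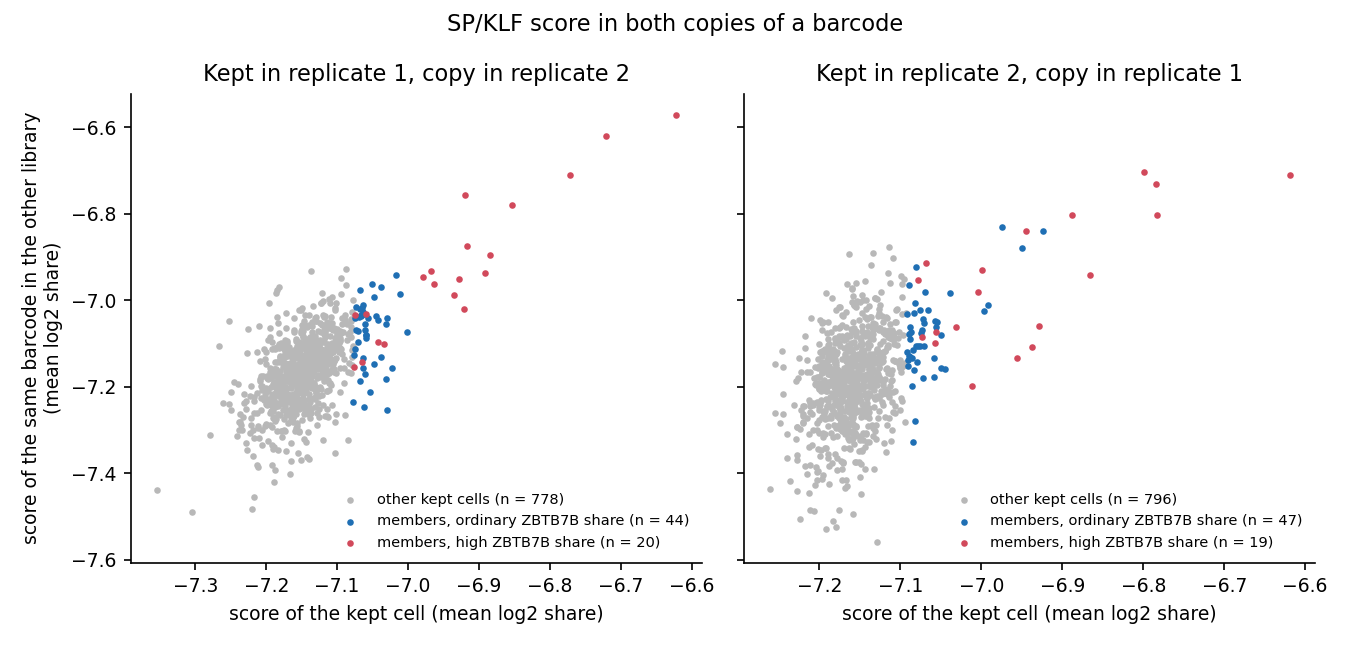
SP/KLF score of the same barcode in the other library against the score of the kept cell, for copies of at least 10000 motif counts, 1 panel per library of the kept cell. Member copies (blue and red) lie mostly high, with 57 of 64 and 62 of 66 above the median of the other copies (grey).

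Members also lay near each other in motifs that did not define the score. Neighbours were taken from 10 principal components of 536 motifs, without the 5 motifs of the score and those correlated with it over 0.7, after the total had been regressed out. Of a member's 20 nearest cells, 49.4% in replicate 1 and 52.2% in replicate 2 were members (50.8% ± 2.0, SD, n = 2), where members were 7.98% and 7.99% of cells. For other cells it was 1.83% and 1.77%. The share was 58.3% and 67.5% for the high ZBTB7B members and 45.6% and 46.1% for the ordinary ones. In replicate 1, 7 members and in replicate 2 1 member had no member among their neighbours. The motifs used can still share peaks with those of the score, so this is a description of how the members cluster. The members are given no cell type name: they were chosen for a higher share of 5 SP and KLF motifs, and the matrices do not say whether the peaks behind these are promoters.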

How the data were processed

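The authors deposited, for each library, raw counts of 579 motifs per cell barcode, written by software version 1.1.0 per the file headers; Cell Ranger and the build mm10 are named in the submitters' processing notes. How peaks were called and motifs searched is not given in the sources used here. The deposited counts were divided by each cell's total. Kept cells, members and depth-matched cells were chosen as described, matching by optimal assignment, which replaced a nearest-first match after that left wide gaps in replicate 1. The minimum of 20 counts left out 2 motifs. Thresholds on the log2 ratio (0.1 in both libraries) stand in for a test. Motifs named were the 5 of the score, all other SP and KLF motifs, the 12 highest and 12 lowest against depth-matched cells, and the 2 highest and 2 lowest of each of 22 lists; others are named only to complete a count or as stated. The members, lists and splits were chosen with earlier results of these data known. No doublet caller was run: 1 and 2 members, against 37 and 54 other cells, had over 2 times the median total of their library. Alternatives covered the threshold, minimum total, matching, scaling, averaging, depth and neighbours. Calculations used Python 3.11.15 with numpy 2.4.6, scipy 1.17.1 and scikit-learn 1.9.0 and were tested on simulated data.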

Additional observations from a re-analysis of the deposited data

How the results depend on the processing

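The ratio of totals, the copy difference and the neighbour share kept their direction under the alternatives run for them, while 4 of the motifs with the highest ratios fell below 0 when the high ZBTB7B members were left out. The score differences stayed positive too, but choosing the members by the score all but fixes that direction, so only their size is informative. Neighbours were taken from motifs that may correlate with the score up to a limit of 0.7. The choice of members therefore also favours a neighbour share above the share of members among all cells. Taking the top 5% gave score differences of 0.179 (rest) and 0.181 (depth-matched), 92 motifs lower, a copy difference of 0.173 and 48.7% member neighbours; the top 12% gave 0.122, 0.126, 16, 0.124 and 53.0%. A minimum of 1000000 counts gave 0.127, 0.126, 15, 0.135 and 44.4%. Leaving out the deepest 5% of cells gave 0.151 against depth-matched cells, a score regressed on log10 total 0.148, 1 matched cell per member 0.147 and weighting by depth decile 0.150. The number of motifs lower fell to 28 with median-centred ratios, 16 with shares outside the promoter lists and 13 with summed counts; a log2 ratio of 0.05 gave 158, and 0.2 gave 0 lower and 10 higher. Limiting the neighbour motifs to a correlation of 0.5 gave 43.4%, and 50 neighbours gave 37.6%.

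Added after seeing the data, median shares gave 37 higher and 16 lower and turned ZBTB7B to −0.054. Leaving out the high ZBTB7B members gave 0.102 and 0.105 for the score, 30 higher, 7 lower, a copy difference of 0.102 and 47.9% neighbours. It also turned ZBTB7B (−0.27), ZBTB7C (−0.020), HIF1A (−0.073) and Stat4 (−0.050). Changes of sign were counted only for the 56 of 100 named motifs whose main ratio was at least 0.1 in size. These 5 were the only ones among their 952 values. Sign changes of the named motifs with smaller ratios were not counted. The cause was not tested.

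Without replicate 1 or 2 the values ran from 0.143 to 0.147 (rest), 0.149 to 0.149 (depth-matched), 101 to 110 motifs higher and 67 to 70 lower, 0.552 to 0.800 for the ratio of totals, 0.139 to 0.148 in copies and 49.5% to 52.2% neighbours; a count from 1 library is larger because only that library has to pass, and the neighbour motifs are then chosen on it alone. No paired analysis was possible because the series has 1 group and no test was made. Shallow cells limit the shares of rare motifs such as Pax6 most.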
